A study of Mus musculus with 2 samples.

Results

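The cells described here are T cells from pancreatic islets that carried RNA of Tnfsf8 or Cd200 and lacked RNA of the genes that define other T cell classes. They were chosen by their counts. A cell had at least 2 unique molecular identifiers (UMIs, counted RNA molecules) of Cd3d, Cd3e and Cd3g together and at least 1 UMI of Tnfsf8 or Cd200. It had no UMI of Cxcr6, Cd8a, Cd8b1, Foxp3, Trdc, Cd163l1, Cd79a or Ms4a1, at most 1 UMI of C1qa, C1qb and C1qc together, and at most 1 UMI of the proliferation genes Mki67, Top2a, Birc5 and Ube2c together. The rule kept 486 of 15958 barcodes, 178 from mice fed 16% HC with 4% gluten and 308 from mice fed 20% HC (the labels do not expand HC). These were 14.2% of 1257 T cells in the gluten library and 13.6% of 2262 T cells in the HC library. They are called Tnfsf8/Cd200 helper cells here. The levels of the genes in the rule are a description of the choice and are not a finding.

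Both groups were NOD/ShiLtJ mice labelled WT NOD and 15 weeks old, a strain that develops autoimmune diabetes spontaneously, so the diet is what set them apart in the labels. Hand-picked islets of 3 mice per diet were pooled, dissociated and read as 1 droplet-based single-cell library per diet. There is therefore no replicate of either diet, no test was made, and every difference between diets is a difference between 2 libraries. Intervals in brackets are 95% intervals for counting error only.

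Helper T cells carry the CD4 coreceptor and act on other immune cells through surface ligands and secreted cytokines. Tnfsf8 encodes CD30 ligand, a member of the tumour necrosis factor (TNF) family whose receptor is CD30, encoded by Tnfrsf8. Cd200 encodes a membrane glycoprotein that signals to myeloid cells through its receptor Cd200r1 and is also made by endothelial cells. Tnfsf11 encodes RANK ligand, which acts on macrophages and dendritic cells through Tnfrsf11a. Bhlhe40 is a transcription factor induced by T cell activation, and Nrn1 encodes neuritin, a small membrane-anchored protein first known from neurons. In mice, many of these genes are used by T follicular helper cells, which help B cells, and by T cells that meet self antigen for long periods.

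The windows around the start sites of the 3 ligand genes are shown because the first 2 genes carry the rule and the third is a ligand marker that the rule did not use. They run from 250 bases before to 50 bases after the start in RefSeq's GRCm38.p6, and 3 of the 5 marker genes had such a window. All 3 lie on the minus strand, at chr4:63861235-63861534 for Tnfsf8, chr16:45409004-45409303 for Cd200 and chr14:78307994-78308293 for Tnfsf11. Capitals mark GGAAA, the core bound by the NFAT factors of T cell receptor signalling.
Tnfsf8: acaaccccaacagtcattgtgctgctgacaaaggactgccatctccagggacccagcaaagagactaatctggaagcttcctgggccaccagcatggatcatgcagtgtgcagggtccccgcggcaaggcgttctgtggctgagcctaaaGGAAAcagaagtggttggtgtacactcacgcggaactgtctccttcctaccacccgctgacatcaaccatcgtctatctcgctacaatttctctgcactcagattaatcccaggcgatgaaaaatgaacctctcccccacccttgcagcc
Cd200: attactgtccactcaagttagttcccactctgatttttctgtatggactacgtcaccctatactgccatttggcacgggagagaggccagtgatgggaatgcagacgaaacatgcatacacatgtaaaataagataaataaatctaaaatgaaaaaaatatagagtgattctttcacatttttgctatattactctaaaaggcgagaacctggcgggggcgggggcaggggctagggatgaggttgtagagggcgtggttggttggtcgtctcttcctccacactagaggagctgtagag
Tnfsf11: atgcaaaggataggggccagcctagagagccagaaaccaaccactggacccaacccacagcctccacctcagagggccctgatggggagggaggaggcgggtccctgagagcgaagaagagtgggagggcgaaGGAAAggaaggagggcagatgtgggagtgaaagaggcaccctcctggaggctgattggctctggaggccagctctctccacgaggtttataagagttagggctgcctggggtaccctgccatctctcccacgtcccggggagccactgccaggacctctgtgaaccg
Each window was searched on both strands for GGAAA (NFAT), TGANTCA (AP-1), TGACGTCA (CRE), a motif of NF-kappa-B and CACGTG (the E-box bound by basic helix-loop-helix factors such as Bhlhe40). Tnfsf8 held 1 GGAAA 100 bases before its start and Tnfsf11 held 1 GGAAA 117 bases before its start. The Cd200 window held none of the 5. GGAAA occurs in 61.3% of the 32851 windows in the table, against 7.81% for TGANTCA, 1.79% for TGACGTCA, 0.411% for the NF-kappa-B motif and 7.15% for CACGTG. The matches are a description of letters and not of binding.

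The gluten library held 8200 barcodes and 88268070 UMIs, and the HC library 7758 barcodes and 116900677 UMIs. Helper cells had a median of 2321.5 UMIs and 1080 genes in the gluten library and of 2913.5 UMIs and 1270.5 genes in the HC library. Their median mitochondrial share was 3.99% and 3.36%. RNA of acinar cells stood apart between the libraries. At least 10 UMIs of acinar enzyme genes were counted in 16 of 178 helper cells of the gluten library and in 0 of 308 of the HC library, which allows a share of up to 0.974%. The libraries shared 15 barcodes, of which 0 were helper cells.

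The share of T cells that met the rule was close in the 2 libraries. It was 14.2% [12.3, 16.2] with gluten and 13.6% [12.2, 15.1] with HC alone, a difference of 0.544 percentage points [-1.80, 2.99]. When T cells were thinned to 1500 UMIs each before the rule was applied, the shares were 11.8% (130 of 1102) with gluten and 12.1% (259 of 2134) with HC alone, a difference of -0.340 points [-2.63, 2.09]. As a share of all barcodes past the quality filters they were 2.35% with gluten and 4.07% with HC alone. T cells were 1257 of 7577 such barcodes with gluten and 2262 of 7565 with HC alone. These shares come from 1 library per diet, so spread between mice is not in the intervals.

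Tnfsf8 was the more frequent of the 2 selecting genes. Of the helper cells with gluten, 94 (52.8%) had Tnfsf8 alone, 38 (21.3%) had Cd200 alone and 46 (25.8%) had both. With HC alone the numbers in the same order were 136 (44.2%), 84 (27.3%) and 88 (28.6%). Many members stood at the edge of the rule. The 2 genes together gave exactly 1 UMI in 77 of 178 cells with gluten and 139 of 308 with HC alone, and 3 or more UMIs in 68 and 102 cells. Just outside the rule were 440 cells with gluten and 875 with HC alone that met every other condition and had 0 UMIs of Tnfsf8 and Cd200. These are called the other T cells here and serve as the comparison. They had a median of 2037.5 UMIs with gluten and 2448 with HC alone, below the helper cells in both libraries.

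RNA of other cell types was more frequent in helper cells than in the other T cells. At least 3 UMIs of a marker set of stromal cells, MHC class II cells, myeloid cells, B cells or epithelial cells were counted in 30 of 178 helper cells with gluten (16.9% [11.7, 23.2]) and in 49 of 308 with HC alone (15.9% [12.01, 20.5]). Among the other T cells the shares were 5.68% (25 of 440) with gluten and 3.20% (28 of 875) with HC alone. T cells with Foxp3 RNA had shares of 15.1% (8 of 53) with gluten and 18.5% (22 of 119) with HC alone. T cells with Cxcr6 RNA but no CD8 or Foxp3 RNA had 12.1% (11 of 91) and 7.56% (13 of 172). Such RNA was thus not particular to helper cells. The stromal set, which joins endothelial and matrix genes, was found in 12.9% of helper cells with gluten and 12.01% with HC alone, against 1.59% and 0.686% of the other T cells. Helper cells with such RNA had a median of 7821.5 UMIs with gluten and 8909 with HC alone, and those without it 2150 and 2687. A doublet score placed 7 helper cells with gluten and 13 with HC alone in the top 6% of their library, and each of these was among the cells with RNA of another type.

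The carriers were mostly cells with Cd200. Among helper cells with Tnfsf8 alone, 5.32% (5 of 94) carried such RNA with gluten and 5.88% (8 of 136) with HC alone. Among those with Cd200 alone the shares were 31.6% (12 of 38) with gluten and 23.8% (20 of 84) with HC alone. Endothelial cells of these libraries had 412 CPM of Cd200 (UMIs of a gene per 1000000 UMIs of the group) with gluten and 463 CPM with HC alone. The matrix genes Col1a1 and Col3a1 summed to 672 CPM in helper cells with gluten and 197 CPM with HC alone, against 4.12 and 9.36 CPM in the other T cells. How far joined cells account for this was not tested. All members are therefore described first, and then the 148 helper cells with gluten and the 259 with HC alone that had fewer than 3 UMIs of every such set, called unmixed cells. This split was chosen after the values were seen. Col1a1 and Col3a1 belong to the stromal set, so the split itself fixed their fall, to 2.66 and 1.28 CPM in unmixed cells.

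**Figure D1:**
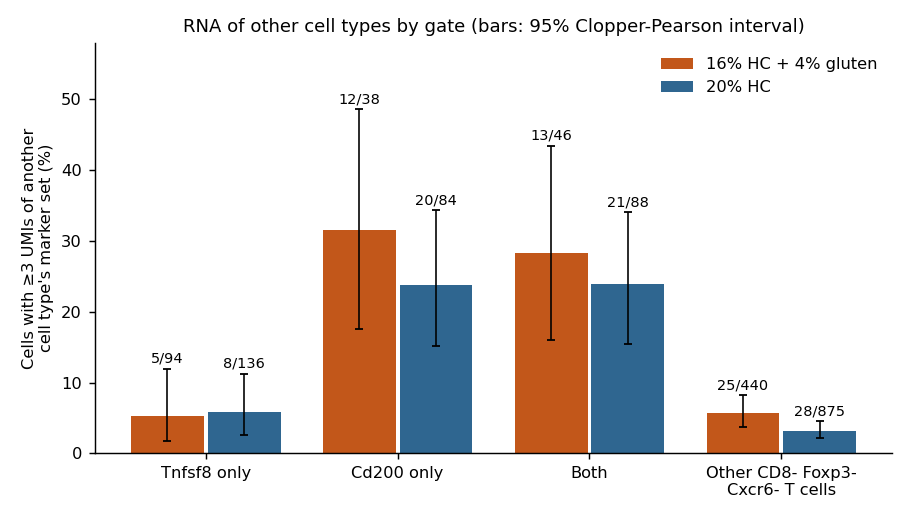
Share of cells with at least 3 UMIs of markers of another cell type, in percent with 95% exact binomial intervals, for helper cells and comparison cells of the gluten library and the HC library. Helper cells with Cd200 stand highest, at 31.6% and 23.8% for Cd200 alone, and helper cells with Tnfsf8 alone lie near 5.32% and 5.88%.

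The helper label was checked against Cd4. Cd4, the coreceptor of helper T cells, was found in 41.0% of helper cells with gluten and 51.9% with HC alone. Among unmixed cells it was found in 37.2% (55 of 148) with gluten and 49.4% (128 of 259) with HC alone, against 24.3% and 32.1% of unmixed other T cells. Thinned to 1500 UMIs, the shares were 24.8% and 29.0% in unmixed helper cells, 18.2% and 22.8% in unmixed other T cells, and 0.111% and 0.0919% in B cells, which should lack the gene. Foxp3 cells, which are CD4 T cells by class, gave 28.9% and 36.1% before thinning and 19.4% and 16.1% after it, and CD8 cells 3.77% and 6.31% before thinning. The median depth of B cells was 2132 UMIs with gluten and 2705.5 with HC alone. The 5 T cell genes Cd3d, Cd3e, Cd3g, Trac and Trbc2 summed to 7470 CPM with gluten and 8304 CPM with HC alone in unmixed helper cells. The 3 natural killer markers Ncr1, Klrb1c and Eomes summed to 15.9 CPM (6 UMIs) with gluten and 15.4 CPM (12 UMIs) with HC alone in unmixed helper cells, against 55.7 and 26.3 CPM in unmixed other T cells. Klrb1c was at 0 in these helper cells of both libraries and Ncr1 in those with gluten, and the B cell genes Cd79a and Ms4a1 were at 0 by the rule.

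Over all members, the genes that led the helper cells were genes of stroma. Of 4048 genes measured with at least 50 UMIs in each library, 170 (4.2%) were at least 2-fold higher in helper cells than in the other T cells in both libraries, and 26 (0.642%) were at least 2-fold lower. The 15 named genes that led the higher side were Mgp, Col4a2, Nid1, Col4a1, Sparcl1, Cavin3, Cpxm1, Dcn, Ramp2, Bgn, Rarres2, Col1a2, Col3a1, Plpp1 and Ly6c1. Most of them are matrix and vessel genes. Mgp, which encodes matrix Gla protein, reached 1327 CPM with gluten and 547 CPM with HC alone, against 20.6 and 17.02 CPM in the other T cells. In the unmixed cells Mgp was down to 2 UMIs in each library, a fall fixed by the split, since Mgp belongs to the stromal set. Of 3131 genes measured in unmixed cells, 42 (1.34%) were at least 2-fold higher and 19 (0.607%) at least 2-fold lower in both libraries. Of these, 27 were among the 170 (15.9% of the 170 and 64.3% of the 42) and 12 among the 26 (46.2% of the 26 and 63.2% of the 19). The split of higher and lower calls depended on scaling. With TMM scaling it was 135 higher and 48 lower over all members, and 33 higher and 29 lower in unmixed cells. TMM moved the median log2 ratio by -0.19 with gluten and by -0.25 with HC alone, and by -0.15 in each library for unmixed cells. CPM values below are for unmixed cells of the helper, other, Cxcr6 and Foxp3 gates and for all cells of the remaining gates. Cxcr6 cells and Foxp3 cells met the same T cell conditions but had at least 1 UMI of Cxcr6 or of Foxp3. CD8 cells had at least 1 UMI of Cd8a or Cd8b1. Without Cd3 RNA, B cells had at least 2 UMIs of Cd79a and Ms4a1, macrophages at least 3 of C1qa, C1qb and C1qc, endothelial cells at least 2 of Pecam1 and Cdh5, mature dendritic cells at least 1 each of Fscn1 and Ccr7, and endocrine cells at least 10% hormone UMIs.

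Tnfsf8 RNA was at 771 CPM [684, 865] with gluten and 525 CPM [475, 578] with HC alone in helper cells. It was lower in the other gates, at 168 and 83.9 CPM in Foxp3 cells, 89.7 and 118 CPM in Cxcr6 cells and 66.0 and 40.2 CPM in CD8 cells. B cells had 1.72 and 0.687 CPM, and hormone-rich endocrine cells 0.147 and 0.146 CPM. Cd200 RNA was at 255 CPM [207, 312] with gluten and 283 CPM [247, 323] with HC alone in helper cells. It was also present outside them, at 133 and 135 CPM in Foxp3 cells, 135 and 78.2 CPM in Cxcr6 cells and 136 and 266 CPM in mature dendritic cells. The other T cells had neither gene by the rule. Every helper cell had at least 1 UMI of the 2 genes by the rule, which the remaining gates did not ask for. The higher levels in helper cells therefore describe the choice of cells.

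Nrn1 (chr13:36725361-36735131, minus strand, mm10) stood farthest from the other T cells among the markers that the rule did not use. These markers were named together with the choice of cells, so their levels are a description and not separate support. It had 178 CPM [138, 226] with gluten and 194 CPM [164, 227] with HC alone, against 16.2 and 10.8 CPM in the other T cells. The log2 ratio of helper over other T cells was 3.45 [2.61, 4.40] with gluten and 4.17 [3.53, 4.87] with HC alone. Thinned to 1500 UMIs, Nrn1 was found in 17.4% of helper cells with gluten and 14.5% with HC alone, against 2.35% and 1.04% of the other T cells and 0.111% and 0.184% of B cells. Foxp3 cells had 195 CPM with gluten and 62.9 CPM with HC alone, so Nrn1 was not particular to helper cells.

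Tnfsf11, the RANK ligand gene, had 183 CPM with gluten and 113 CPM with HC alone in helper cells, against 46.4 and 15.5 CPM in the other T cells. Its log2 ratio was 1.98 [1.40, 2.58] with gluten and 2.87 [2.27, 3.49] with HC alone. Bhlhe40 had 635 CPM [557, 721] with gluten and 176 CPM [148, 208] with HC alone in helper cells, against 283 and 37.5 CPM in the other T cells. Its log2 ratio was 1.17 [0.90, 1.43] with gluten and 2.23 [1.82, 2.64] with HC alone. Bhlhe40 was as high in Foxp3 cells as in helper cells, at 646 and 189 CPM. Mature dendritic cells had 454 and 211 CPM of it.

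The levels of the markers were ordered by the number of Tnfsf8 and Cd200 UMIs per cell. Over cells with 0, 1, 2 and 3 or more such UMIs, Nrn1 was at 16.2, 107, 119 and 268 CPM with gluten and at 10.8, 94.4, 117 and 394 CPM with HC alone. Tnfsf11 was at 46.4, 136, 145 and 243 CPM with gluten and at 15.5, 56.7, 104 and 203 CPM with HC alone. Bhlhe40 was at 283, 471, 608 and 791 CPM with gluten and at 37.5, 89.0, 172 and 309 CPM with HC alone. Depth differed between these cells, with medians of 1887, 2176 and 2360 UMIs at 1, 2 and 3 or more with gluten, and of 2649, 2482 and 3015 UMIs with HC alone, so cells with 3 or more were the deepest in each library. Klf2, a factor that keeps T cells circulating, ran the other way, at 1061, 635, 344 and 324 CPM with gluten and 965, 656, 737 and 260 CPM with HC alone. Cells with 1 UMI thus lay between the other T cells and the rest of the members for these genes, except that Klf2 with HC alone was higher at 2 UMIs than at 1.

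**Figure D2:**
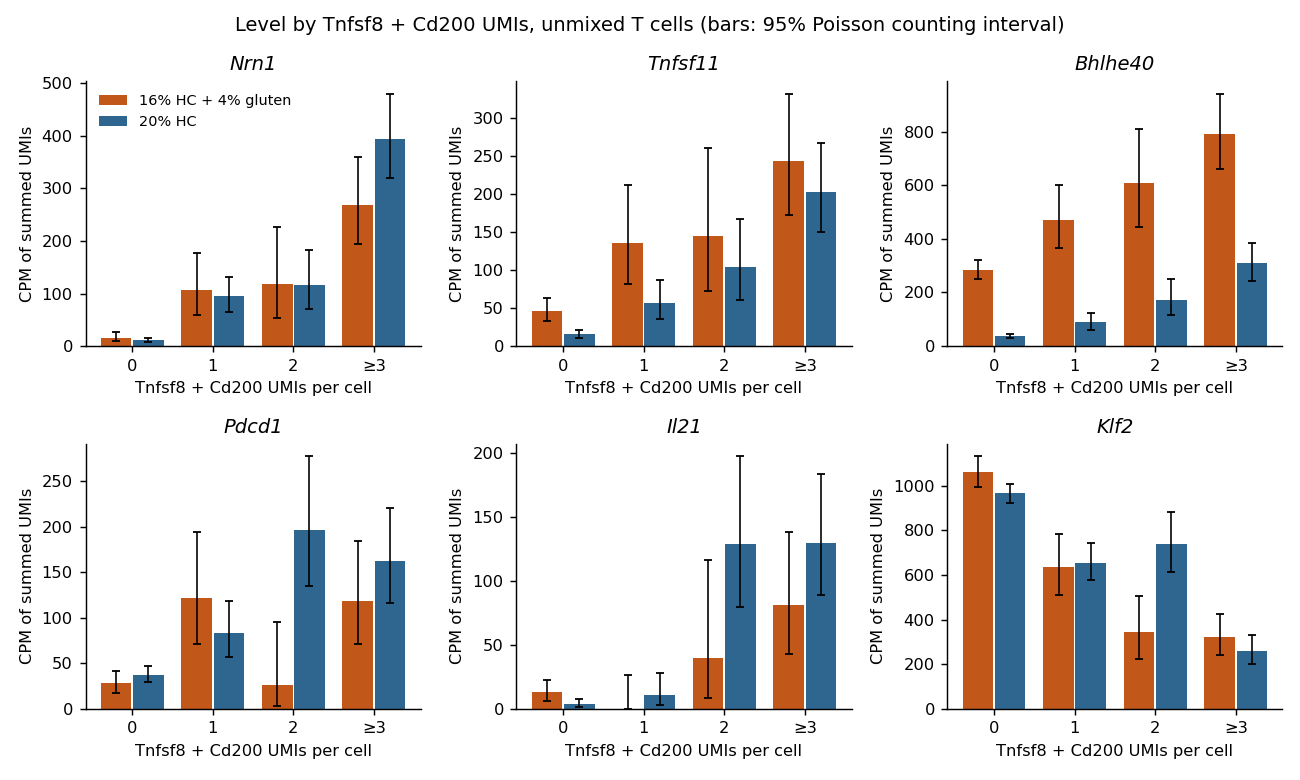
CPM of Nrn1, Tnfsf11, Bhlhe40 and further genes in unmixed cells grouped by their summed UMIs of Tnfsf8 and Cd200 (0, 1, 2, 3 or more), for the gluten library and the HC library, with 95% exact Poisson intervals for counting error. Nrn1 reaches 268 and 394 CPM in the highest bin, against 16.2 and 10.8 CPM at 0.

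Genes of follicular helper T cells, which guide B cells, were mostly higher in helper cells. Of 17 genes measured with HC alone all 17 had a log2 ratio above 0, with a median of 1.58, and of 16 with gluten 14 did, with a median of 0.76. The median of all measured genes was 0.10 in each library. Above 0 were 3255 of 5658 with gluten and 4708 of 7978 with HC alone. List counts of unmixed helper cells over the other T cells are to be read against these shares. The shares do not serve for comparisons with Cxcr6 cells, between diets or over all members. Bcl6, the transcription factor that sets this programme, had 31.9 CPM against 10.4 CPM in the other T cells with gluten, and 30.8 against 9.38 CPM with HC alone (log2 1.61 and 1.71). Cxcr5, the receptor that leads to B cell follicles, had 15.9 against 9.28 CPM with gluten and 24.4 against 5.63 CPM with HC alone. Icos, a costimulatory receptor, had 335 against 207 CPM with gluten and 192 against 66.1 CPM with HC alone (log2 0.70 and 1.54). Angptl2, a secreted protein, had 98.3 against 11.6 CPM with gluten and 59.0 against 3.28 CPM with HC alone (log2 3.08 and 4.17). Maf, which drives interleukin 21 production, had 130 against 113 CPM with gluten and 281 against 87.2 CPM with HC alone (log2 0.21 and 1.69).

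Il21, the cytokine by which such cells help B cells and CD8 T cells, was sparse. It had 42.5 CPM [24.3, 69.0] in helper cells with gluten, against 12.8 CPM in the other T cells, and 73.1 CPM [55.4, 94.7] with HC alone, against 3.75 CPM. It was found in 10 of 148 helper cells with gluten and 40 of 259 with HC alone. The log2 ratio was 1.74 [0.54, 2.99] with gluten and 4.28 [3.21, 5.56] with HC alone. Ifng, the type 1 cytokine, had 202 against 98.6 CPM in the other T cells with gluten and 236 against 71.3 CPM with HC alone (log2 1.03 and 1.73). Cxcr6 cells had more of it, at 244 and 355 CPM. With HC alone, 25 of 40 helper cells with Il21 also had Ifng (62.5% [45.8, 77.3]), against 43 of 219 without Il21 (19.6% [14.6, 25.5]), at median depths of 2888.5 and 2670 UMIs. With gluten the counts were 4 of 10 (40.0% [12.2, 73.8]) against 33 of 138 (23.9%), and the cells with Il21 were deeper, at 4932 against 2117.5 UMIs.

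Further helper cytokines were looked up. Il17a, Il17f, Il22, Il3 and Csf2 had 0 UMIs in unmixed helper cells of both libraries, and Il4 had 0 with gluten and 4 with HC alone. A count of 0 allows up to 7.97 CPM with gluten and 3.85 CPM with HC alone. Il10, which dampens inflammation, had 47.8 CPM with gluten, against 13.9 CPM in the other T cells, but in only 4 cells. With HC alone it had 23.1 against 2.81 CPM, in 6 cells. Of 9 cytokine genes measured, 8 with gluten and 9 with HC alone were above 0, with medians of 0.59 and 1.73. Type 1 helper genes were split. With gluten 6 of 13 were above 0 with a median of -0.60, and with HC alone 10 of 15 with a median of 0.44.

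Receptors of inhibition were among the higher genes. Of 11 checkpoint genes measured, 9 with gluten and 10 with HC alone were above 0, with medians of 0.97 and 1.41. Pdcd1, which encodes PD-1, had 101 against 27.8 CPM in the other T cells with gluten and 132 against 37.5 CPM with HC alone (log2 1.86 and 1.82). Lag3 had 226 against 101 CPM with gluten and 226 against 41.7 CPM with HC alone (log2 1.16 and 2.43). Ctla4, the counterpart of the costimulator CD28, had 683 against 348 CPM with gluten and 222 against 83.5 CPM with HC alone (log2 0.97 and 1.41). Genes linked to anergy, the unresponsive state of T cells that meet self antigen, were split. With gluten 8 of 13 were above 0 with a median of 0.68, and with HC alone 10 of 15 with a median of 1.61.

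Several members of the anergy list stood higher. Izumo1r, which encodes folate receptor 4 of anergic and regulatory T cells in mice, had 364 against 220 CPM in the other T cells with gluten and 573 against 182 CPM with HC alone (log2 0.72 and 1.66). Foxp3 cells had more of it, at 1062 and 938 CPM. Nt5e, which encodes the adenosine-producing enzyme CD73, had 42.5 against 30.2 CPM with gluten and 106 against 23.5 CPM with HC alone (log2 0.49 and 2.18). Tbc1d4, a regulator of vesicle traffic, had 486 against 193 CPM with gluten and 796 against 133 CPM with HC alone (log2 1.34 and 2.58). Dtx1, a ubiquitin ligase of the same list, was lower in both libraries, with log2 ratios of -1.17 and -1.18.

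Among TNF receptors, Tnfrsf4, which encodes the costimulator OX40, had 595 against 186 CPM in the other T cells with gluten and 441 against 86.8 CPM with HC alone (log2 1.68 and 2.35). Tnfrsf9, which encodes 4-1BB, had 146 against 30.2 CPM with gluten and 50.02 against 13.6 CPM with HC alone (log2 2.28 and 1.88). Both are induced by T cell receptor signals. The list of genes of recent T cell receptor signalling had 13 of 18 genes above 0 with gluten, with a median of 0.50, and 18 of 23 with HC alone, with a median of 0.87. The TNF ligand Ltb, a subunit of lymphotoxin, was abundant and near equal, at 1031 against 1075 CPM with gluten and 1288 against 1242 CPM with HC alone. Cd40lg, the ligand by which helper cells activate B cells and dendritic cells, had 42.5 against 24.4 CPM with gluten and 64.1 against 49.7 CPM with HC alone.

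Further genes led the unmixed helper cells outside these lists. Eea1, an early endosome protein, had 223 against 62.7 CPM in the other T cells with gluten and 298 against 31.4 CPM with HC alone (log2 1.83 and 3.24). Gpm6b, a membrane protein known from the nervous system, had 136 against 27.8 CPM with gluten and 160 against 20.6 CPM with HC alone (log2 2.28 and 2.96). The gene 1700019D03Rik had 157 against 33.7 CPM with gluten and 194 against 12.7 CPM with HC alone (log2 2.22 and 3.93). Penk, the enkephalin precursor, had 130 against 16.2 CPM with gluten and 79.5 against 16.9 CPM with HC alone. It came from 9 helper cells with gluten and 11 with HC alone, with up to 18 and 23 UMIs in 1 cell. In Cxcr6 cells Penk had 74.7 CPM with gluten and 122 CPM with HC alone, and in Foxp3 cells 0 and 195 CPM, so it did not set helper cells apart with HC alone. Eea1 had 186 and 222 CPM in Foxp3 cells.

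Genes of naive and circulating T cells were lower in helper cells. Of 15 measured, 12 with gluten and 14 with HC alone were below 0, with medians of -0.64 and -0.83. Lef1, a transcription factor of naive T cells, had 69.1 against 294 CPM in the other T cells with gluten and 183 against 651 CPM with HC alone (log2 -2.09 and -1.83). Satb1 had 162 against 363 CPM with gluten and 122 against 409 CPM with HC alone (log2 -1.16 and -1.75). Il7r, the interleukin 7 receptor, had 90.4 against 251 CPM with gluten and 324 against 578 CPM with HC alone (log2 -1.47 and -0.83).

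Other genes were lower without belonging to the naive state. Ccl5, a chemokine of effector T cells, had 470 against 2010 CPM in the other T cells with gluten and 91.1 against 527 CPM with HC alone (log2 -2.10 and -2.53). It was found in 13 helper cells with gluten, 1 of which held 100 of 177 UMIs, and in 17 with HC alone, 1 of which held 35 of 71. Cxcr6 cells held most of it, at 8562 and 3608 CPM. Cd7 had 15.9 against 91.7 CPM with gluten and 8.98 against 50.2 CPM with HC alone. Ribosomal protein genes were slightly lower, with 18 of 20 below 0 with gluten and 20 of 20 with HC alone, at medians of -0.16 and -0.19. Genes of free RNA from acinar and endocrine cells, which T cells do not make, had medians of -0.21 with gluten and -2.77 with HC alone. With HC alone, a single unmixed other T cell held 1286 of the 1673 UMIs of acinar enzyme genes in its group. The part of free RNA in the other differences was not tested.

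Against the Cxcr6 cells, which lack CD8 and Foxp3 as well, helper cells were lower in genes of killing and of type 1 helper cells. Of 9 cytotoxic genes measured with gluten 2 were above 0, with a median log2 ratio of -2.56, and of 10 with HC alone 2 were, with a median of -3.10. Of type 1 genes 2 of 10 were above 0 with gluten, with a median of -2.27, and 2 of 15 with HC alone, with a median of -1.53. The medians of all measured genes were 0.01 and -0.01. Nkg7, a protein of cytotoxic granules, had 274 CPM in helper cells and 1609 CPM in Cxcr6 cells with gluten, and 153 and 1347 CPM with HC alone. Lag3 was also higher in Cxcr6 cells, at 498 CPM with gluten and 343 CPM with HC alone. Tnfsf11 was lower there, at 29.9 and 32.1 CPM.

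Against the Foxp3 cells, helper cells were lower in Ikzf2 and Itgae, which the rule did not use. Ikzf2, the Helios factor, had 300.3 CPM in helper cells and 770 CPM in Foxp3 cells with gluten, and 251 and 947 CPM with HC alone. Itgae, the integrin of tissue-resident T cells, had 13.3 CPM in helper cells and 221 CPM in Foxp3 cells with gluten, and 11.5 and 129 CPM with HC alone. Tnfsf11 and Tbc1d4 stood higher in helper cells. Tnfsf11 had 183 CPM in helper cells with gluten and 113 CPM with HC alone, against 35.4 and 35.97 CPM in Foxp3 cells. Tbc1d4 had 486 CPM in helper cells with gluten and 796 CPM with HC alone, against 186 and 267 CPM in Foxp3 cells and 214 and 188 CPM in Cxcr6 cells. Pdcd1, Icos, Bhlhe40 and Tnfrsf4 did not set helper cells apart in this way, since other gates reached their levels. Pdcd1 had 119.5 CPM with gluten and 154 CPM with HC alone in Cxcr6 cells, and Icos had 349 and 202 CPM there. Tnfrsf4 had 672 and 1016 CPM in Foxp3 cells. Tnfrsf9 had 106 CPM with gluten and 231 CPM with HC alone in Foxp3 cells, above helper cells with HC alone only.

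**Figure D3:**
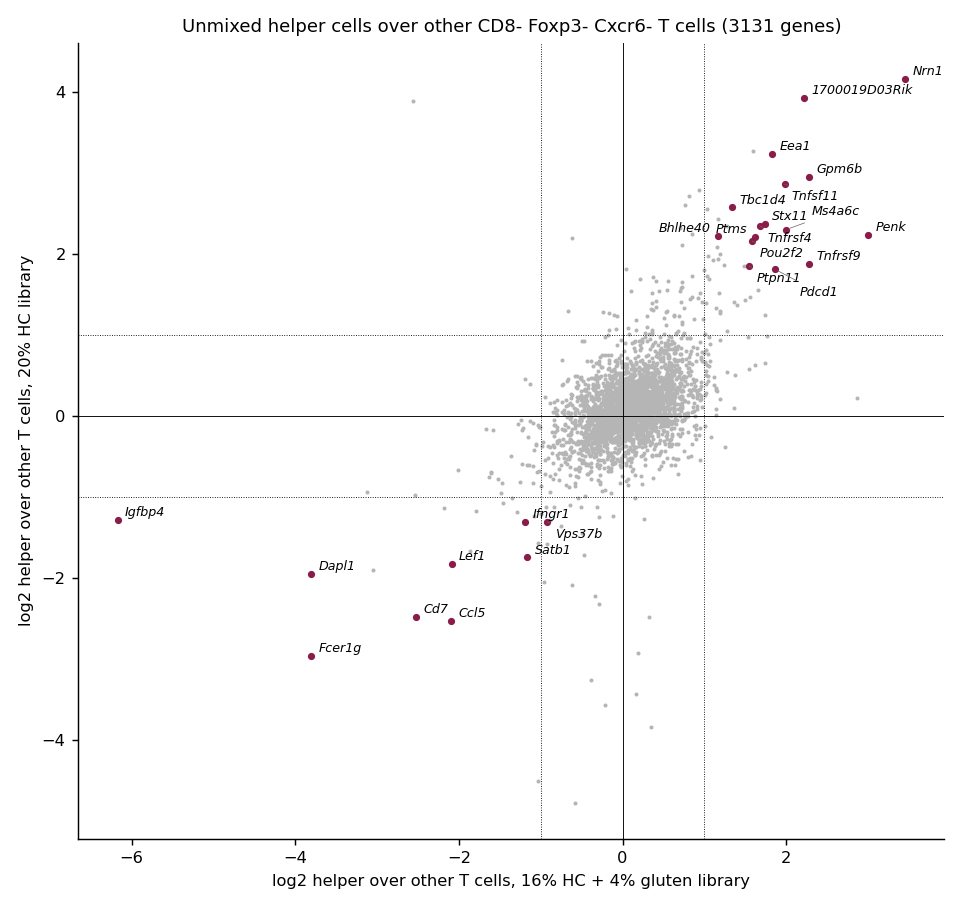
Log2 ratio of CPM in unmixed helper cells over unmixed other T cells, gluten library on one axis and HC library on the other, 1 point per gene for 3131 genes, with the leading genes and the markers coloured and named and dotted lines at 2-fold. Nrn1 (3.45 and 4.17) lies far out on the higher side, and Ccl5 (-2.10 and -2.53) and Lef1 (-2.09 and -1.83) on the lower.

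**Figure D4:**
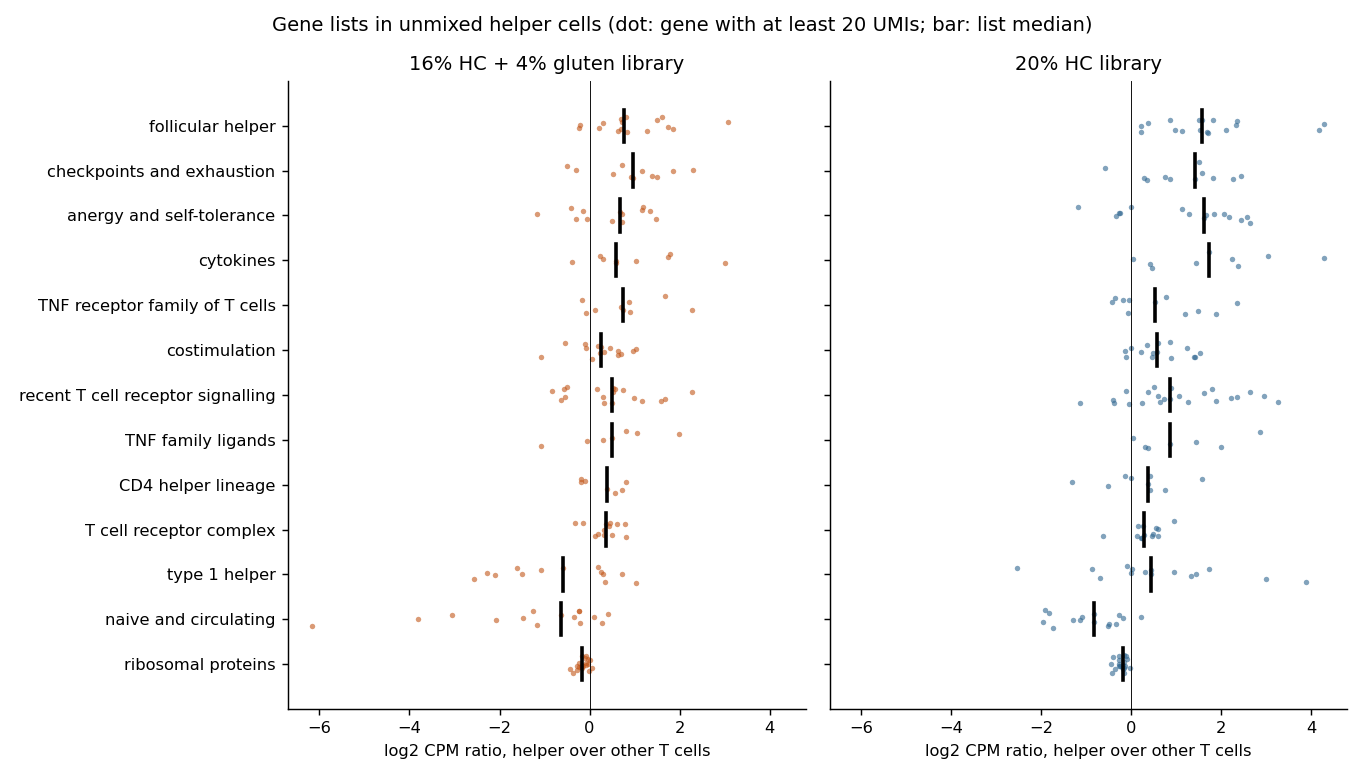
Log2 ratio of unmixed helper cells over unmixed other T cells for gene lists, for the gluten library and the HC library. Each dot is a gene with at least 20 UMIs, each bar a list median, and a line marks 0. The medians of follicular helper genes (0.76 and 1.58) and checkpoint genes (0.97 and 1.41) lie above the median of all measured genes (0.10 in each, not drawn). The median of naive genes (-0.64 and -0.83) lies below it.

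Helper cells with both selecting genes differed in level from those with 1 of them. The numbers of unmixed cells with Tnfsf8 alone, Cd200 alone and both were 89, 26 and 33 with gluten and 128, 64 and 67 with HC alone. Il21 was at 10.7, 12.3 and 121 CPM in these cells with gluten and at 22.8, 62.2 and 164 CPM with HC alone. With gluten the first 2 of these values rest on 2 UMIs and 1 UMI. Nrn1 was at 176, 73.7 and 260 CPM with gluten and at 120, 167 and 337 CPM with HC alone. Its 73.7 CPM rests on 6 UMIs. Tnfsf11 was at 155, 110 and 288 CPM with gluten and at 82.7, 71.7 and 200 CPM with HC alone. These 3 genes were thus highest in cells with both, in each library. Cells with both held at least 2 UMIs of the selecting genes by definition, so this order is not separate from the order by UMIs above. Depth differed too. Median UMIs with Tnfsf8 alone, Cd200 alone and both were 1917, 2213.5 and 2449 with gluten and 2504, 2875 and 3015 with HC alone. Klf2 was at 667, 270 and 186 CPM with gluten and at 764, 430 and 314 CPM with HC alone, lowest in cells with both. Lag3 was at 144, 270 and 335 CPM with gluten and at 103, 253 and 396 CPM with HC alone, lowest in cells with Tnfsf8 alone. Ccl5 differed between libraries in cells with Cd200 alone, at 1657 CPM with gluten and 81.3 CPM with HC alone. With gluten, 1 cell held 100 of all 177 Ccl5 UMIs of the unmixed helper cells. Nkg7, Gzmk and Eomes were higher with Cd200 alone than with Tnfsf8 alone in both libraries. Nkg7 had log2 ratios of 2.57 [1.89, 3.28] with gluten and 1.58 [0.89, 2.30] with HC alone. Gzmk had 17 against 1 UMIs with gluten and 13 against 3 with HC alone, and Eomes 6 against 0 and 5 against 0. Prf1 went both ways, at 4 against 0 and 0 against 3 UMIs. Klrd1 did too, at 3 against 0 with gluten and 1 against 10 with HC alone. Ncr1, Klre1 and Gzma went the other way with HC alone, at 0 against 7, 0 against 3 and 0 against 2 UMIs. Genes of killing and natural killer cells therefore did not all lean the same way. Cd4 had log2 ratios of -0.99 [-2.21, 0.08] and -0.47 [-1.02, 0.06].

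Il21 also followed other genes of the same cells. It was found in 8 of 42 helper cells with Tnfsf11 (19.0%) and 2 of 106 without it (1.89%) with gluten, and in 17 of 60 (28.3%) and 23 of 199 (11.6%) with HC alone. It was found in 22.7% of helper cells with Pdcd1 and 3.97% without it with gluten, and in 34.4% and 9.60% with HC alone. Tnfsf11 was found in 40.7% of helper cells with Nrn1 and 25.6% without it with gluten, and in 39.2% and 19.2% with HC alone. Deeper cells show more genes at once, so depth bears on each of these shares.

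Receptors for the helper ligands were found on different cells of the islet. Tnfrsf8, the receptor for CD30 ligand, was at most 1 UMI in helper cells of a library, at 2 UMIs from 1 cell with gluten and 3 from 3 cells with HC alone in Foxp3 cells, and at 0 in macrophages, mature dendritic cells and endothelial cells. Tnfrsf11a, the receptor for RANK ligand, had 25.9 CPM with gluten and 44.4 CPM with HC alone in mature dendritic cells, 20.3 and 16.9 CPM in macrophages, 9.11 and 18.5 CPM in endothelial cells, and 0 in helper cells. Cd40, the receptor for CD40 ligand, had 509 and 492 CPM in mature dendritic cells, 94.7 and 159 CPM in macrophages and 79.8 and 105 CPM in B cells. Cd200r1 had 9.96 and 60.1 CPM in Cxcr6 cells and 4.51 and 5.93 CPM in macrophages. It was also found in unmixed helper cells. Those with Cd200 alone had 0 UMIs of it with gluten and 7 with HC alone, and those with Tnfsf8 alone had 1 and 3. Il21r, the interleukin 21 receptor, had 183 and 133 CPM in helper cells themselves, 96.5 and 112 CPM in B cells, 110 and 101 CPM in macrophages, and 0.737 and 0.438 CPM in endocrine cells.

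Between the diets, 4891 genes were measured over all helper cells. With gluten 178 of them (3.64%) were 2-fold or more above HC alone, and 113 (2.31%) 2-fold or more below it. In unmixed helper cells the counts were 81 of 3204 (2.53%) higher and 82 (2.56%) lower. Both lists held 49 of the higher genes (27.5% of the 178 and 60.5% of the 81) and 36 of the lower genes (31.9% of the 113 and 43.9% of the 82). In all other T cells the shares were 3.02% higher and 3.8% lower. In the unmixed other T cells 175 of 5585 genes (3.13%) were higher and 212 (3.8%) lower, so shares of this size were not particular to helper cells.

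Genes that led the diet difference in unmixed helper cells were set beside their values in the unmixed other T cells, where some were close and others were not. Odc1, the first enzyme of polyamine synthesis, had 571 CPM with gluten and 104 CPM with HC alone, a log2 ratio of 2.46 [2.08, 2.85], and 2.49 in the other T cells. Gem, a small GTPase, had 170 and 25.7 CPM, a log2 ratio of 2.73, and 2.98 in the other T cells. Gadd45b, a stress-induced gene, had 765 and 198 CPM, a log2 ratio of 1.95 [1.67, 2.25], and 1.18 [0.97, 1.38] in the other T cells. Dusp5, a phosphatase that limits ERK signalling, had 189 and 38.5 CPM, a log2 ratio of 2.29, and 2.00 in the other T cells. Bhlhe40 had a log2 ratio of 1.85 [1.54, 2.17], and 2.92 [2.55, 3.30] in the other T cells. Apoe, at 136 CPM with gluten and 21.8 CPM with HC alone, had a log2 ratio of 2.64, and -0.02 in the other T cells, and rested on 1 cell that held 39 of 51 UMIs.

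On the lower side with gluten, Il7r had 90.4 CPM with gluten and 324 CPM with HC alone, a log2 ratio of -1.84 [-2.41, -1.32], and -1.21 in the other T cells. Ddit4, an inhibitor of the growth kinase mTOR, had 10.6 and 92.3 CPM, a log2 ratio of -3.12, and -1.97 in the other T cells. Slfn1, a gene of resting T cells, had 29.2 and 139 CPM, a log2 ratio of -2.24, and -2.03 in the other T cells. Txnip, which limits glucose uptake, had 106 and 323 CPM, a log2 ratio of -1.60 [-2.12, -1.12], and -0.70 [-0.89, -0.51] in the other T cells. Igfbp4 had 1 UMI in unmixed helper cells with gluten and 78 with HC alone, and a log2 ratio of -0.35 in the other T cells. Over all helper cells it had 166 UMIs with gluten and 210 with HC alone, a log2 ratio of 0.57 [0.26, 0.87]. Its direction thus turned with the split. Of 16 genes of the Gimap and Schlafen families and further quiescence genes, 3 were above 0, with a median of -0.39 in helper cells and of -0.65 in the other T cells.

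The genes that mark the helper cells did not move together between the diets. Tnfsf11 had a log2 ratio of 0.70 [0.22, 1.17] in helper cells and 1.58 [0.88, 2.29] in the other T cells. Nrn1 was at -0.12 [-0.56, 0.30] in helper cells and 0.59 [-0.48, 1.61] in the other T cells. Tnfsf8, at 0.56 [0.33, 0.78], and Cd200, at -0.15 [-0.51, 0.20], carry the rule. Their ratios describe the choice of cells and are not a finding. Il21 was at -0.78 [-1.68, 0.04]. Maf, at -1.11 [-1.59, -0.66], Izumo1r, at -0.66, and Nt5e, at -1.32, were lower with gluten in helper cells, and their values in the other T cells were 0.37, 0.28 and 0.36. Ctla4 had a log2 ratio of 1.62, and 2.06 in the other T cells. Of 17 follicular helper genes 5 were above 0, with a median of -0.39, against a median of 0.15 in the other T cells. Whether the diet ratio differs between helper cells and the other T cells was not tested, since each diet had 1 library.

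Genes of handling and stress also lay above 0 with gluten. All 9 heat shock genes measured were above 0 in helper cells, with a median of 0.47, as were 10 of 10 in the other T cells, with a median of 0.43. Of 15 immediate early genes 12 were above 0, with a median of 0.21, and of 13 NF-kappa-B genes 10 were, with a median of 0.53. Genes of free RNA had a median of 1.84, with 18 of 18 above 0, against 0.46 in the other T cells, with 22 of 27 above 0. The other T cells with HC alone include the cell with 1286 acinar UMIs. The median of all measured genes was -0.05 in helper cells. The part of tissue handling, of free RNA and of the diet in these values cannot be told apart with 1 library per diet.

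**Figure D5:**
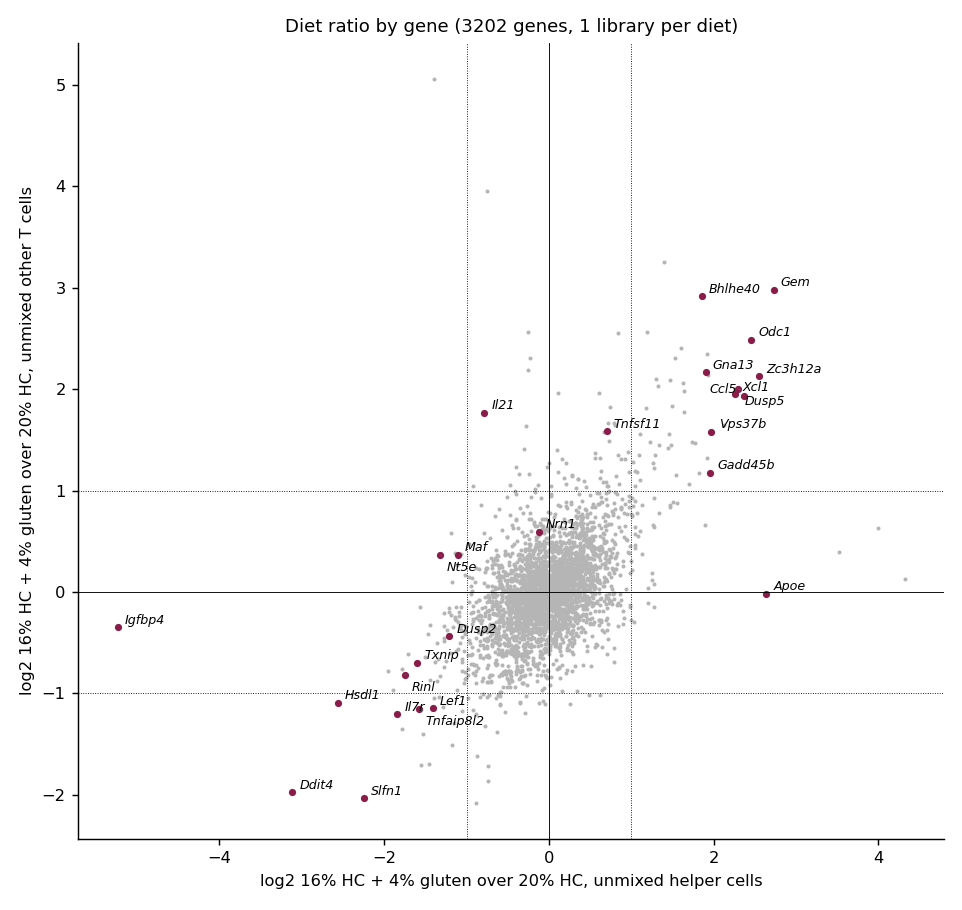
Log2 ratio of CPM with gluten over HC alone in unmixed helper cells against the same ratio in unmixed other T cells, 1 point per gene, with named genes labelled. Odc1 (2.46 and 2.49) and Gem (2.73 and 2.98) lie near the line of equal ratios, while Maf (-1.11 and 0.37) and Nt5e (-1.32 and 0.36) lie on opposite sides of 0.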

How the data were processed

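The authors deposited raw counts, whole-number UMIs per gene and barcode, made with Cell Ranger 4.0.0 on mm10 per the submitters' processing notes. Barcodes with at least 500 UMIs, at least 200 genes, at most 20% mitochondrial UMIs and under 10% hormone UMIs were kept. UMIs of each gene were summed over the cells of a gate and divided by the gate's total (CPM). A gene was measured with at least 50 UMIs over the compared cells, in each library for helper over other T cells and over both libraries for the diet. List members and the median of all measured genes beside them needed at least 20 UMIs over the compared cells. Ratios carry exact conditional binomial 95% intervals. Where a count was 0, a floor of 3 counts was used. Genes were named by the interval bound nearer 0, and within lists by level or a 2-fold ratio. Doublets were scored with Scrublet and not removed, apart from the alternatives. Coordinates are from GENCODE M21. The members and the 32 gene lists were chosen with earlier results of these data known. The unmixed cells were defined after seeing the data. Some named genes are not reported here. Python 3.11.15, NumPy 2.4.6, SciPy 1.17.1, scanpy 1.11.5 and matplotlib 3.10.9 were used.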

Additional observations from a re-analysis of the deposited data

Results flagged for a closer look

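For 6 genes the log2 ratio of all helper cells over the other T cells had opposite signs in the 2 libraries, with intervals on opposite sides of 0. None of these differences was tested, since each diet had 1 library. Ccl3, an inflammatory chemokine, was at -2.75 with gluten and 2.51 with HC alone. Ccl4, its close relative, was at -1.87 with gluten and 3.54 with HC alone. Ccl4 came from 5 helper cells and 25 other T cells with gluten, with up to 127 UMIs in 1 other T cell, and from 12 helper cells and 13 other T cells with HC alone, with up to 66 UMIs in 1 helper cell. Ttr, a transthyretin gene of endocrine cells, was at -1.93 with gluten and 2.36 with HC alone, where 1 helper cell held 202 of 235 UMIs. Igfbp4 was at 0.50 with gluten and -0.48 with HC alone, and 1 UMI of it was left in unmixed helper cells with gluten. Rgs1 was at -0.42 with gluten and 0.50 with HC alone. Zfp36 was at 0.43 with gluten and -0.23 with HC alone.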

How the results depend on the processing

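No paired analysis was possible because each diet had 1 library, which also leaves no replicate to leave out. Counts of genes at least 2-fold apart moved with the UMI minimum and with the cells kept. For higher with gluten, lower with gluten, higher in helper over other T cells and lower there, the counts over all members were 178, 113, 170 and 26. They became 51, 50, 35 and 7 with T cells thinned to 1500 UMIs, 410, 461, 424 and 47 with a minimum of 20 UMIs, and 96, 37, 84 and 11 with a minimum of 100. The count lower in helper cells became 44 with at least 2 UMIs of Tnfsf8 and Cd200, 48 with TMM scaling, and 41 with CPM without mitochondrial, free RNA and ribosomal genes. Asking for Cd4 left 75 higher and 10 lower in helper cells. Leaving out cells with RNA of another type gave 81 genes higher with gluten and 42 higher in helper cells. Of the list medians, free RNA with gluten turned to 0.15 and the diet ratio of interferon genes to 0.067 when thinned. In unmixed cells the medians of helper over other T cells changed sign for type 17 genes with HC alone, to -0.0037, and for interferon genes in both libraries and costimulation genes with gluten, as given under the other observations. The median of all genes in helper over other T cells turned to -0.042 with gluten and -0.078 with HC alone under TMM, and to -0.0072 with gluten under the trimmed CPM. The cause was not tested. The difference in share stayed between -1.27 and 0.730 points under the alternatives run. Genes under the UMI minimum, Il21 with gluten among them, are limited by depth.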

Other observations

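Further gene lists were set side by side in unmixed helper cells and the unmixed other T cells. Glycolysis and growth genes were above 0 in 13 of 15 with gluten and 14 of 16 with HC alone, with median log2 ratios of 0.29 and 0.33. Gapdh, a glycolytic enzyme, had 1013 against 628 CPM in the other T cells with gluten and 802 against 533 CPM with HC alone. Costimulation genes were above 0 in 11 of 15 with gluten and 13 of 15 with HC alone, with medians of 0.24 and 0.57. Over all members, mixed cells included, 5 of 15 were above 0 with gluten, with a median of -0.09, and 12 of 15 with HC alone, with a median of 0.26. Of all genes measured over all members with gluten, 4214 of 6909 were above 0, with a median of 0.15. Cd82, a tetraspanin of activated T cells, had 271 against 133 CPM with gluten and 258 against 97.6 CPM with HC alone. Interferon response genes were below 0 in 11 of 19 with gluten and 18 of 20 with HC alone, with medians of -0.08 and -0.48. Over all members the sign was the other one, with 14 of 19 above 0 with gluten and 15 of 22 with HC alone, at medians of 0.51 and 0.22. Within that list Ifi27l2a was higher in unmixed helper cells, at 1127 against 586 CPM with gluten and 999 against 528 CPM with HC alone. The early activation gene Cd69 was lower in helper cells in both libraries, at 271 against 423 CPM with gluten and 313 against 414 CPM with HC alone.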
